A study of Homo sapiens with 18 samples.

Results

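ESYT2 and GAS6 are genes in which QKI peaks were plentiful at day 0, nearly absent at day 4 and present again at day 8 of cardiomyocyte differentiation. They were chosen by their numbers of peaks per day, for a low day 4, so the levels by day are given as a description without a test. The members were all eCLIP peaks that overlapped the gene intervals on the minus strand (hg19): chromosome 7, 158523686 to 158622319, for ESYT2 (98634 nt) and chromosome 13, 114523522 to 114567046, for GAS6 (43525 nt). These intervals held 702 of the 879442 clusters listed over 9 IP libraries, 443 in ESYT2 and 259 in GAS6, and 44 of the 10301 peaks in the authors' 3 reproducible lists. No cluster was listed on the plus strand of either interval.

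The cells were HUES6, a line of human embryonic stem cells. Day 0 cells were pluripotent and were grown in FTDA medium. Day 4 cells, labelled cardiac progenitors, had received CHIR and BMP4 and then C59, and day 8 cells, labelled cardiomyocytes, had had further C59 and were collected once they beat. All groups came from 1 line, for which the labels give no genetic change, and each day had 3 IP libraries with 3 size-matched inputs, which entered only through the authors' scores. Whether same-day libraries were grown separately is not given in the labels, so p-values measure the spread between these libraries, which may be technical. The labelled cell types were not checked against marker genes, which were not analysed here.

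QKI belongs to the STAR proteins, which bind RNA, and regulates splicing and RNA stability from sites in introns and untranslated regions. In eCLIP, ultraviolet light links the protein to RNA in living cells, the protein is immunoprecipitated, and the attached fragments are sequenced and scored against input. ESYT2 encodes extended synaptotagmin 2, an endoplasmic reticulum protein that tethers this organelle to the plasma membrane and moves lipids between them. GAS6 encodes a secreted, vitamin K-dependent protein that is the ligand of the receptor tyrosine kinases TYRO3, AXL and MERTK. The files held peaks and no reads, so read depth was unknown. The number of passing peaks, defined here by the authors' scores as enriched 4-fold or more over input with a p no higher than 0.001, ranged from 12695 to 15508 per library at day 0, from 3030 to 7775 at day 4 and from 3726 to 10966 at day 8.

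In ESYT2, the membrane tether, the day 0 libraries held 39, 41 and 37 passing peaks (39.0 ± 2.0, SD, n = 3). The day 4 libraries held 0, 1 and 1 (0.667 ± 0.577), and the day 8 libraries held 8, 11 and 9 (9.33 ± 1.53). No library of one day reached the range of another, but whole libraries at day 0 also held more passing peaks than any library of day 4 or day 8. The share of loci with this separation in numbers was not counted. In GAS6, the receptor ligand, the day 0 libraries held 25, 29 and 19 passing peaks (24.3 ± 5.03), and the day 8 libraries held 13, 9 and 15 (12.3 ± 3.06). All 3 day 4 libraries held 0. Both genes together thus had 2 passing peaks at day 4, both in ESYT2, of 257 in all. When each library was held to its 3030 passing peaks of lowest p, ESYT2 means were 25 at day 0, 0 at day 4 and 5.67 at day 8. GAS6 means were 0.333, 0 and 5.67, so that the high day 0 of GAS6 was not seen. This ranking was by p, with fold only for ties.

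Numbers of peaks differed between whole libraries, so they were also expressed per 10000 passing peaks of the library. On this scale ESYT2 had 25.1, 32.3 and 28.3 at day 0, 0, 1.29 and 2.50 at day 4, and 12.7, 29.5 and 8.21 at day 8. GAS6 had 16.1, 22.8 and 14.5 at day 0 and 20.6, 24.2 and 13.7 at day 8. The day 4 libraries stayed below all others in both genes on this scale too, while the ranges of day 0 and day 8 overlapped. Of 155 loci rich in reproducible peaks, 9.03% likewise had every day 4 library below every other library, and 50.3% had day 0 and day 8 libraries that did not overlap. A count of 0 in GAS6 allows up to 9.90, 3.86 and 7.50 per 10000 in day 4 replicates 1, 2 and 3, at 3 counts per library (counting error only). The 0 of ESYT2 in day 4 replicate 1 likewise allows up to 9.90, which is above its share in day 8 replicate 3 (8.21). The part of library size in the low day 4 was not tested. RNA levels were not analysed here, so fewer cells of a type, less RNA per cell and weaker binding cannot be told apart.

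**Figure D1:**
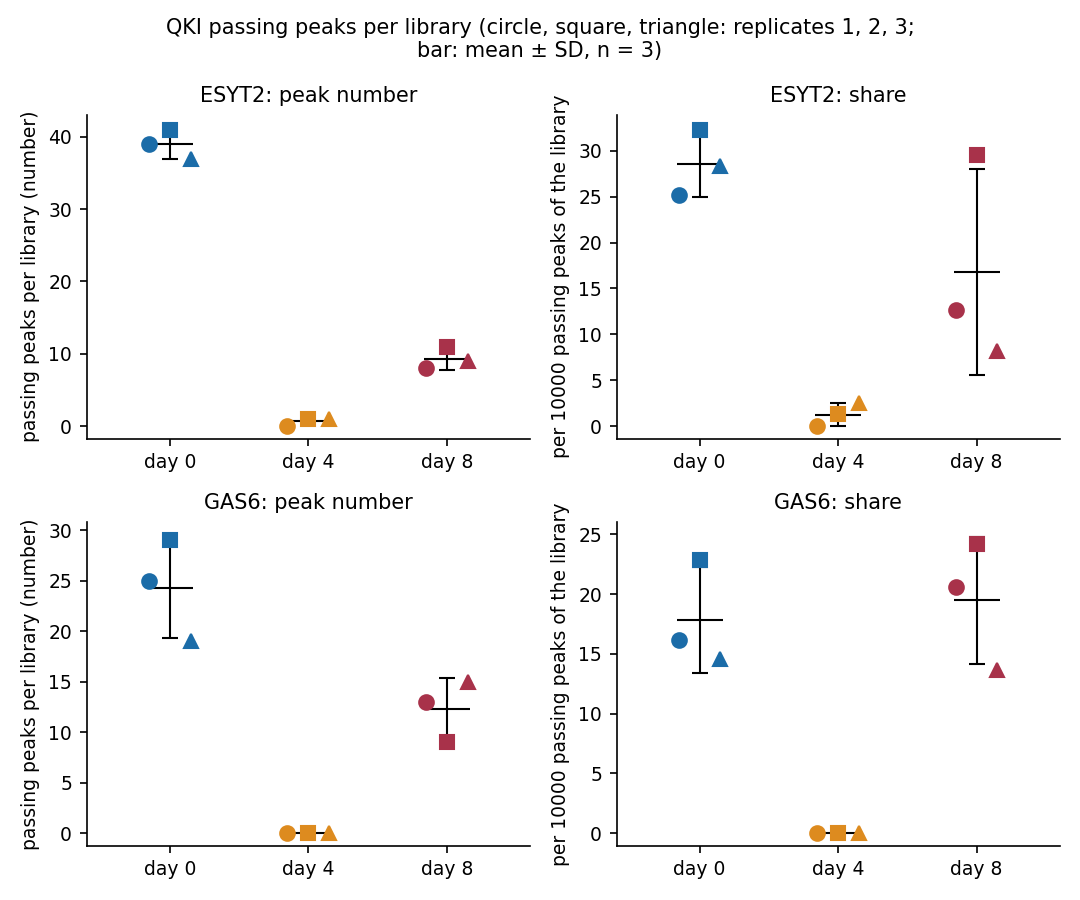
Passing QKI peaks in ESYT2 (top) and GAS6 (bottom) at day 0, day 4 and day 8, as numbers per library (left) and per 10000 passing peaks of the library (right). Symbols are the 3 libraries of a day and bars the mean ± SD. The day 4 libraries lie at 0 or 1 peak, and the day 0 and day 8 libraries overlap only on the right.

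Some clusters were still listed at day 4, but nearly all missed the p threshold. In ESYT2 there were 12, 12 and 21 clusters of any fold in the day 4 libraries, against 78, 111 and 118 at day 0 and 23, 39 and 29 at day 8. In GAS6 there were 8, 7 and 17 at day 4, against 37, 47 and 43 at day 0 and 26, 33 and 41 at day 8. Clusters at day 4 were thus fewer than in any library of the other days, which the choice of genes for a low day 4 favours. Whole lists held 102085 to 187962 clusters at day 0, 63319 to 99552 at day 4 and 52462 to 62897 at day 8. The share of loci with fewer clusters at day 4 was not counted. Of the 27 day 4 clusters in ESYT2 with at least 4-fold enrichment, 25 had p above 0.001, and in GAS6 this was so for 23 of 23. Over all day 4 lists the share was 85.3%. In ESYT2 it was 7.87% at day 0 and 55.6% at day 8, and in GAS6 29.1% and 50.7%, against 78.1% over all lists of either day. Both genes were thus below the lists as a whole at day 0 and day 8 and above them at day 4. Because the genes were chosen for few peaks at day 4 and passing depends on p, this in part restates that choice. The strongest day 4 cluster in GAS6 had an authors' log2 fold of 3.76 with a −log10 p of 2.18.

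Many of the clusters listed at day 4, passing or not, lay at positions bound at day 0. Of the 45 in ESYT2, 22 (48.9%, Wilson 95% interval 35.0% to 63.0%) overlapped a passing day 0 peak by at least 1 nt. Of the 32 in GAS6, 14 (43.8%, 28.2% to 60.7%) did. Peaks passing at day 0 covered 3.50% of the nucleotides in ESYT2 and 6.55% in GAS6. Such coverage is below the overlap expected from position alone, since a cluster many nt wide needs to touch only 1 nt. Over all day 4 clusters the overlap was 10.1%, which includes places with few day 0 peaks, whereas both genes had many. These intervals cover counting error only and take clusters of different libraries as independent, and the differences were not tested. Both day 4 peaks that passed in ESYT2 lay on day 0 positions. The first was at 158545525 to 158545606 in replicate 2 (log2 fold 4.72), and the other at 158543114 to 158543171 in replicate 3 (3.44).

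Day 8 was compared with day 0 over all 155 loci. The genes were chosen for a low day 4 and not by this contrast. A low day 4 needs peaks at the other days, however, so the contrast is not free of that choice. Shares of passing peaks were fitted with limma on the scale of log2(share), with a pseudocount of 0.5 peaks. ESYT2 was lower at day 8 by a log2 difference of -0.91 ± 0.46 (SE), which did not pass (limma, Benjamini-Hochberg adjusted p = 0.106). GAS6 had a log2 difference of 0.14 ± 0.49 (limma adjusted p = 0.886). Neither gene was among the 57 loci called in either direction, 36.8% of those tested, and the median locus moved by 0.08. The ESYT2 value depended on the library, the threshold and the measure. It was -0.32 with a minimum of 8-fold (limma adjusted p = 0.694) and -0.38 with every listed cluster (limma adjusted p = 0.280). Without day 8 replicate 2, which had the highest ESYT2 share (29.5) and the fewest passing peaks of its day, the difference was -1.42 (limma adjusted p = 0.00305), and without day 8 replicate 3, which had the lowest share, it was -0.50 (limma adjusted p = 0.376). With covered nucleotides in place of peak numbers it was -1.30 (limma adjusted p = 0.00756). Passing day 8 peaks in ESYT2 had median widths of 40.5, 34 and 48 nt in the 3 libraries, against 61, 57 and 62 nt at day 0. For GAS6 the difference was 1.01 when every listed cluster was counted (limma adjusted p = 0.00507), with a median locus at 0.50. Its clusters per 10000 listed clusters were 3.62, 2.61 and 2.29 at day 0 and 4.96, 5.39 and 6.52 at day 8. On this measure 57 of the 155 loci were called higher and 23 lower.

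ESYT2 peaks lay in a few dense stretches. Passing peaks of all 9 libraries that lay within 1 kb of each other were joined, which gave 13 stretches. The fullest, 2994 nt long at 158573742 to 158576735, lay 45.6 to 48.6 kb from the 5′ end of the gene interval and took up 3.04% of its length. It held 17, 19 and 16 passing peaks in the day 0 libraries, 0 in each day 4 library, and 7, 10 and 7 in the day 8 libraries. It thus held 43.6%, 46.3% and 43.2% of the gene's passing peaks at day 0 and 87.5%, 90.9% and 77.8% at day 8, ranges that did not overlap. These stretches were drawn after the peaks were seen, so the shares were not tested.

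The authors' reproducible lists held 32 ESYT2 peaks at day 0, none at day 4 and 1 at day 8. The highest fold at day 0 was at 158574889 to 158574915, in the fullest stretch, with an authors' log2 fold of 4.94. Passing peaks overlapped it in each day 0 library (5.80, 6.06 and 3.40), and no day 4 or day 8 library listed a cluster there. The peak of day 0 replicate 3, at 158574812 to 158574892, reached only its edge and lay mainly over the adjoining peak. The adjoining peak at 158574810 to 158574888 passed in each day 0 library and in day 8 replicates 2 and 3 (4.55 and 5.49). The next was at 158545523 to 158545601 (4.84), which passed in day 4 replicate 2 and day 8 replicate 3. Then came adjoining peaks at 158550157 to 158550243 (4.71) and 158550118 to 158550156 (4.68), followed by 158575093 to 158575183 (4.45) and 158574259 to 158574360 (4.36). The last of these passed in all libraries of day 0 (4.97, 4.47 and 3.59) and of day 8 (3.84, 4.88 and 4.69).

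The remaining ESYT2 stretches were nearly empty of passing peaks at day 8. A stretch of 1752 nt at 158549801 to 158551552 (70.8 to 72.5 kb from the 5′ end) held 11, 9 and 6 passing peaks at day 0 and 0, 1 and 0 at day 8. It included the strongest ESYT2 peak of day 0 replicate 1, at 158550158 to 158550249, with an authors' log2 fold of 5.88. That position passed in day 8 replicate 2 alone (4.72). Stretches at 158544964 to 158545606 and 158543013 to 158543263 held 3, 2 and 2, and 3, 3 and 2 peaks at day 0. At day 8 they held 0, 0 and 1, and 1, 0 and 1. The stretch nearest the 5′ end with a peak in each day 0 library, at 158611031 to 158611592, held 1, 2 and 3 peaks at day 0 and 0 in each day 8 library. Of the 13 stretches, 4 held a passing peak at day 8. Clusters that did not pass were still listed. Summed over the libraries of a day, the stretch at 158549801 to 158551552 had 10 clusters of any score at day 8 and 29 at day 0. The fullest stretch had 30 and 58.

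**Figure D2:**
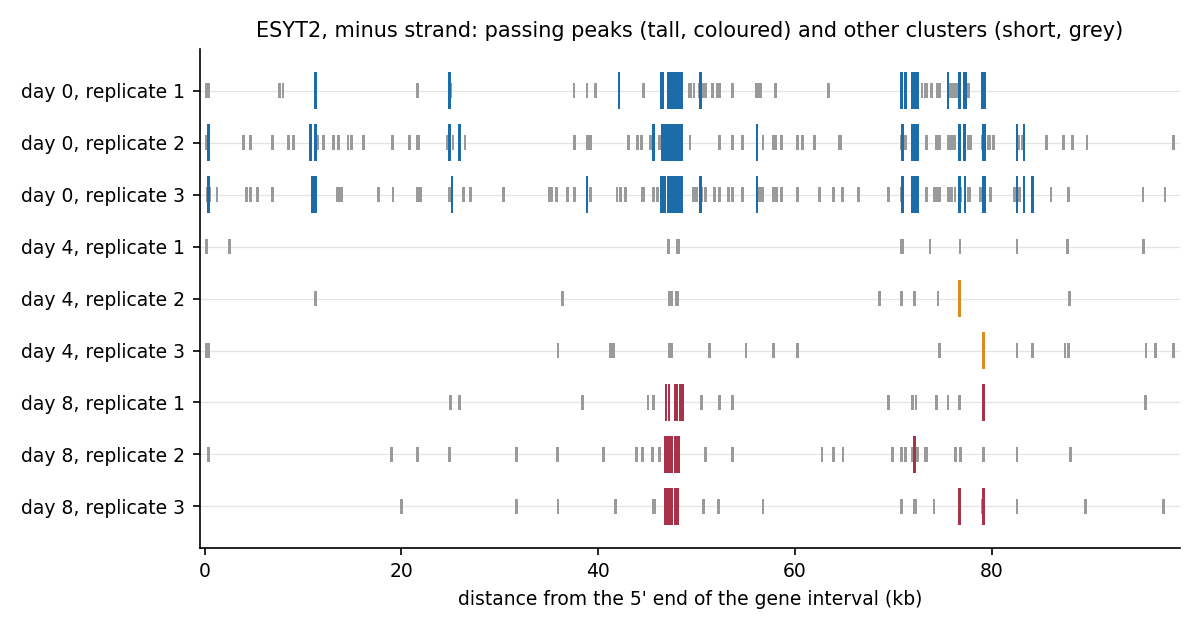
Position of QKI peaks along the ESYT2 interval in each library, as distance from its 5′ end in kb, with tall coloured bars for passing peaks and short grey bars for other listed clusters (the narrowest are widened to be visible). Day 0 peaks fill stretches near 47 kb and 72 kb, and 24 of the 28 passing day 8 peaks lie in the first of these.

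Inside the fullest ESYT2 stretch, day 8 peaks stood mainly on day 0 positions. The one reproducible day 8 peak of the gene, at 158575109 to 158575181, had log2 folds of 4.37, 5.31 and 5.33 in the day 8 libraries. The day 0 peaks over it had log2 folds of 5.25, 4.72 and 3.44, and day 4 clusters over it had 2.12, 2.72 and 3.44, none with p at or below 0.001. A cluster was thus listed there in 9 of 9 libraries. Regions at 158574053 to 158574360 and 158574378 to 158574563 also passed in all 6 libraries of day 0 and day 8. Next to them, regions at 158574591 to 158574633, 158574717 to 158574786 and 158575704 to 158575782 passed in 3 of 3 day 0 libraries and had no cluster at day 8. The opposite was seen at 158575395 to 158575467, which passed in 3 of 3 day 8 libraries and 1 of 3 at day 0, with no cluster in the other two.

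**Figure D3:**
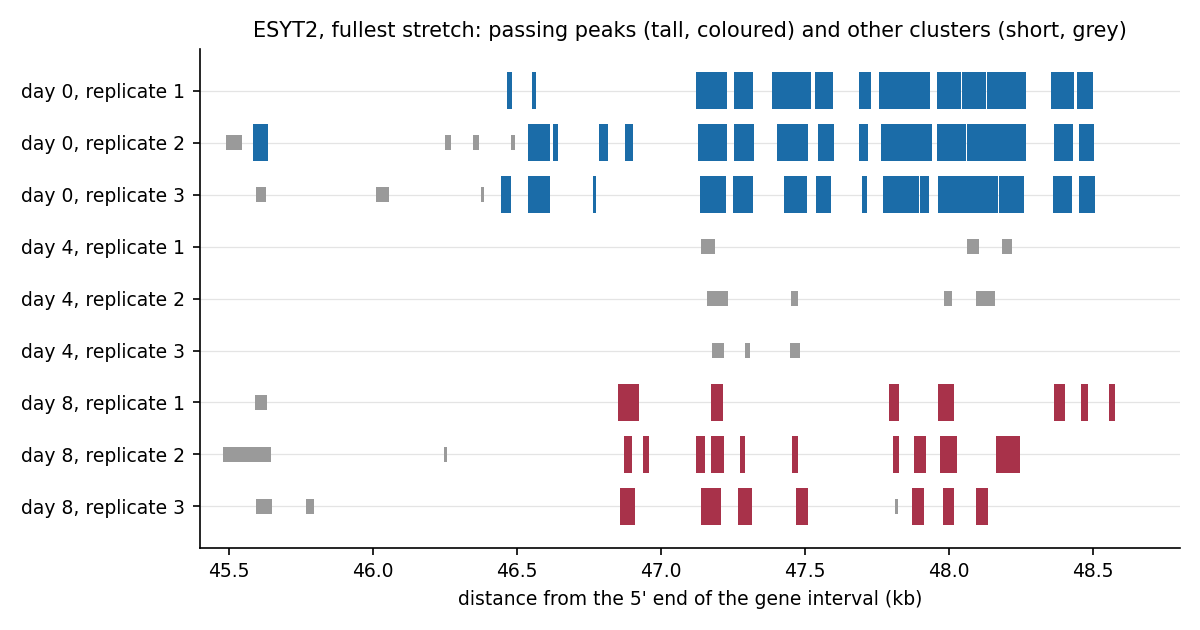
The fullest ESYT2 stretch, drawn as in the map of the whole gene, with distance from the 5′ end in kb. Day 8 peaks at about 47.2 kb and 48.0 kb lie under day 0 peaks, and those at about 46.9 kb stand where only day 0 replicate 2 has a passing peak.

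GAS6 peaks were spread over the 5′ part of the gene. One stretch of 13428 nt at 114553087 to 114566514, 0.532 to 14.0 kb from the 5′ end, held 22, 29 and 18 passing peaks at day 0 and 12, 9 and 15 at day 8. Outside it, 5 passing peaks in all lay at 114536557 to 114537121. The authors' reproducible lists had 9 GAS6 peaks at day 0, none at day 4 and 2 at day 8. The strongest of these at day 0 (114563921 to 114563981, log2 fold 5.14) overlapped the strongest at day 8 (114563884 to 114563969, 5.41). At that position the day 0 libraries had log2 folds of 5.97, 5.29 and 3.71 and the day 8 libraries 6.86, 4.83 and 4.22. At day 4 it had a cluster in replicate 2 alone, with a log2 fold of 2.14 and a −log10 p of 1.25.

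The second reproducible day 8 peak of GAS6 overlapped no day 0 cluster, though day 0 peaks lay beside it. It lay at 114564082 to 114564156 and had log2 folds of 3.33, 4.88 and 4.12 in the day 8 libraries, while no day 0 library listed a cluster of any fold there. In day 4 replicate 1 a cluster that did not pass overlapped it. A day 0 reproducible peak lay beside it, at 114564193 to 114564287 (log2 fold 3.54), and passed in 1 of 3 day 8 libraries. A passing peak of day 0 replicate 1, at 114564158 to 114564210 (5.49), began just past the end of the day 8 peak. The day 8 replicate 3 peak, at 114564092 to 114564173, overlapped that day 0 peak. In the other direction, the day 0 peak at 114564534 to 114564574 had log2 folds of 5.49, 3.51 and 5.03 and no cluster in any day 4 or day 8 library. The position at 114564912 to 114564979 passed throughout day 0 (4.23, 3.76 and 2.62) and day 8 (3.03, 3.46 and 3.76). Farther from the 5′ end, the peak at 114553842 to 114553945 had 4.70, 4.79 and 3.58 at day 0 and passed in day 8 replicate 3 alone (4.27).

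The other reproducible day 0 peaks of GAS6 passed in some or none of the day 8 libraries. That at 114563147 to 114563253 (authors' log2 fold 4.73) passed in day 8 replicate 2 alone (2.33). Those at 114562944 to 114563011 (4.30) and 114560776 to 114560861 (3.91) passed in replicates 1 and 3. The peak at 114553637 to 114553702 (3.99) passed in none and had a cluster in replicate 3. Of all 9, only the positions near 114562944, 114563921 and 114564912 had any cluster at day 4, and none of these passed.

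**Figure D4:**
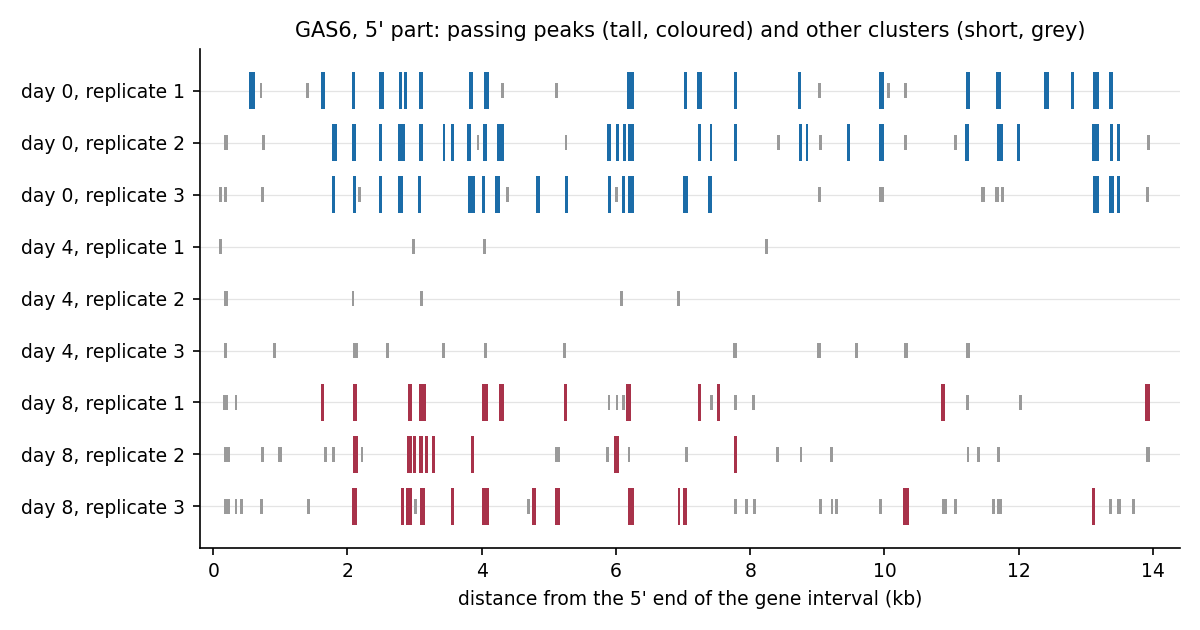
Position of QKI peaks in the 5′ part of GAS6 in each library, as distance from the 5′ end of the interval in kb, with tall coloured bars for passing peaks and short grey bars for other clusters (the narrowest are widened to be visible). Peaks near 2.1 and 3.1 kb pass in all day 0 and day 8 libraries, and no day 4 library has a tall bar.

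Positions were also counted as regions. Merging the passing peaks of the 6 day 0 and day 8 libraries gave 46 regions in ESYT2, of which 33 were bound at day 0 alone, 11 at both days and 2 at day 8 alone (71.7%, 23.9% and 4.35%). GAS6 had 45 regions, of which 20 were bound at day 0 alone, 16 at both and 9 at day 8 alone (44.4%, 35.6% and 20%). Of all 26390 regions, 51.3% were bound at day 0 alone, 21.6% at both and 27.1% at day 8 alone. Regions bound in 3 of 3 day 0 libraries and 0 of 3 day 8 libraries numbered 8 in ESYT2 (17.4%) and 2 in GAS6 (4.44%), against 10.5% of all regions. Of the 8 in ESYT2, 5 had no cluster of any fold at day 8. Each gene had 3 regions bound in all 6 libraries, 6.52% in ESYT2 and 6.67% in GAS6, against 4.11% of all regions. The reverse pattern, 3 of 3 at day 8 and 0 of 3 at day 0, was seen in 0 regions of each gene, against 1.87% of all. The GAS6 region at 114564078 to 114564288, counted as bound in all 6 libraries, merged the day 8 peak described above with its day 0 neighbour. That neighbour passed in 1 of 3 day 8 libraries. The merging thus put the day 8 peak in that count and not in the reverse pattern. These counts were not tested between the genes.

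Most passing day 8 peaks in ESYT2 overlapped a passing day 0 peak, 26 of 28 (92.9%, Wilson 95% interval 77.4% to 98.0%). In GAS6 this held for 25 of 37 (67.6%, 51.5% to 80.4%), and over all passing day 8 peaks for 53.9%. By library the shares were 87.5%, 90.9% and 100% in ESYT2 and 69.2%, 55.6% and 73.3% in GAS6, against 50.4%, 63.3% and 52.7% of all passing peaks of the same libraries. In the other direction, 41.0% of the passing day 0 peaks in ESYT2 and 52.1% of those in GAS6 overlapped a passing day 8 peak, against 40.7% over all. ESYT2 was thus above the library's own share in 3 of 3 libraries and GAS6 in 2 of 3. The intervals cover counting error only and take peaks as independent, although the libraries can list the same site. The share over all peaks includes places with few day 0 peaks, whereas both genes had many. The difference was not tested. Passing day 0 peaks covered 3.50% of ESYT2 and 6.55% of GAS6, which are shares of nucleotides and not of peaks.

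Whether the peaks of day 0 and day 8 held the same nucleotides was measured by the Jaccard index, the nucleotides under passing peaks of both libraries over those under a peak of either. In ESYT2 the index was 0.565 to 0.689 between day 0 libraries, 0.213 to 0.302 between day 8 libraries and 0.0974 to 0.174 between libraries of different days. Same-day pairs exceeded different-day pairs by 0.291 on average, the highest of the 10 ways to part the 6 libraries (one-sided exact permutation p = 0.1, adjusted 0.2 over 4 position tests). In GAS6 the index was 0.219 to 0.326 between day 0 libraries, 0.176 to 0.246 between day 8 libraries and 0.0796 to 0.181 between days. The difference of 0.109 was again the highest of 10 (one-sided exact permutation p = 0.1, adjusted 0.2). With 3 libraries a day, 0.1 is the smallest p this test can give, so it could not pass 0.05. Passing peaks covered 2501, 2472 and 2280 nt of ESYT2 at day 0 and 350, 443 and 456 nt at day 8, and in GAS6 1704, 1595 and 1143 nt against 819, 520 and 825 nt. The index of a pair cannot exceed the shorter covered length over the longer. In ESYT2 these lengths alone keep every index between days below the lowest same-day index, 0.213. The ESYT2 difference therefore had to be positive wherever the day 8 peaks lay, and cannot show a change of positions. In GAS6 the lengths do not fix the result, and their part in the index was not tested.

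The mean position of passing-peak nucleotides was nearer the 5′ end at day 8 on average, within the spread of the libraries. In ESYT2 it lay 59.4, 54.1 and 54.6 kb from the 5′ end at day 0 and 53.0, 51.1 and 55.0 kb at day 8, a difference of -3.02 kb (two-sided exact permutation p = 0.3, adjusted 0.3). In GAS6 it lay 12.3, 6.92 and 7.46 kb from the 5′ end at day 0 and 8.69, 3.80 and 5.39 kb at day 8, a difference of -2.94 kb (two-sided exact permutation p = 0.3, adjusted 0.3). The ranges of the days overlapped in both genes. With a minimum of 8-fold they did not, and the differences of -3.62 kb in ESYT2 and -3.58 kb in GAS6 had the smallest p the test can give (two-sided exact permutation p = 0.1). Without day 0 replicate 1, whose mean lay farthest from the 5′ end in both genes, the differences were -1.34 and -1.23 kb.

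Set beside the other loci, both genes had a low Jaccard index between day 0 and day 8. The mean index between the days was 0.144 in ESYT2 and 0.132 in GAS6, against a median of 0.447 over the 127 loci with a passing peak in all 6 libraries. Of these loci, 7 lay below ESYT2 and 6 below GAS6. Within day 0 the index of ESYT2, 0.608, was nearer the median of 0.692, with 38 loci below it, whereas that of GAS6, 0.283, had 1 locus below it. Within day 8 the values were 0.262 and 0.200, against a median of 0.567. GAS6 was thus low within each day as well as between them. The units differ, because the genes were whole intervals (98634 and 43525 nt) and the other loci spanned only their joined reproducible peaks. Unequal covered length also holds the index down. In ESYT2 this length was 350 to 456 nt at day 8 against 2280 to 2501 nt at day 0. A low index there does not by itself mean different positions, and 26 of 28 passing day 8 peaks overlapped a passing day 0 peak. These are descriptions, with no test.

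**Figure D5:**
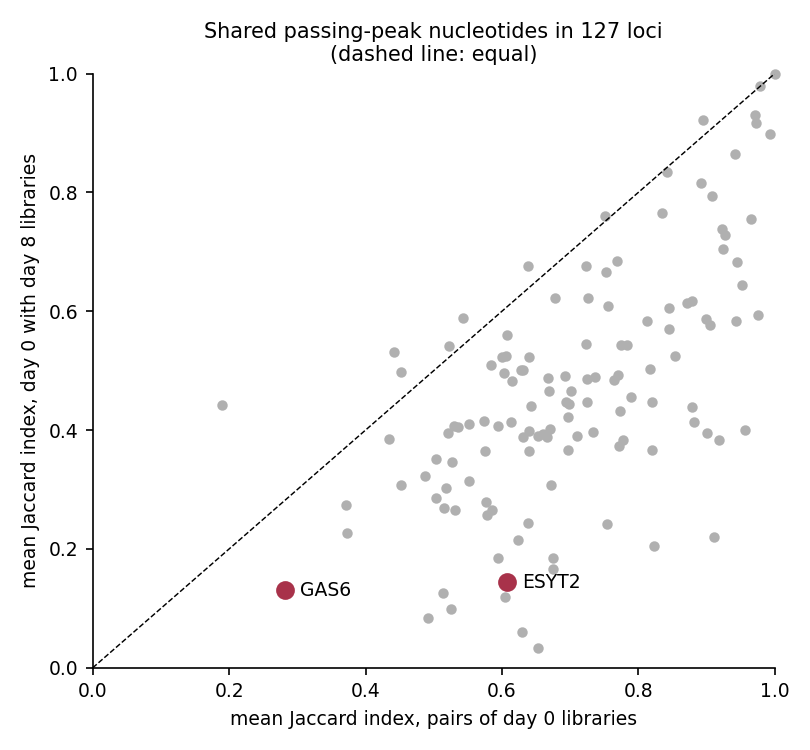
Mean Jaccard index of passing-peak nucleotides between day 0 and day 8 libraries (vertical) against that among day 0 libraries (horizontal), for 127 loci, with the dashed line marking equal values. ESYT2 and GAS6 lie at 0.144 and 0.132 on the vertical axis, and GAS6 is also low on the horizontal one.

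Each gene was close to the other in its pattern over the 9 libraries, and both had been chosen for a low day 4. The Pearson correlation of their log2 shares was 0.92, the highest of 154 loci for ESYT2 and the second for GAS6. A minus-strand locus on chromosome 10 (97154085 to 97174214) was the most like GAS6 (r = 0.96) and the second most like ESYT2 (0.90). It held 12, 10 and 10 passing peaks at day 0, 0, 1 and 0 at day 4, and 6, 5 and 7 at day 8. The third for ESYT2 was on the plus strand of chromosome 10 (134355724 to 134367839, r = 0.86), with 36, 35 and 32 peaks at day 0, 1, 10 and 6 at day 4, and 17, 15 and 18 at day 8. The third for GAS6 was on the minus strand of chromosome 4 (186562496 to 186606115, r = 0.89). Its numbers were 13, 15 and 12 at day 0, 0, 1 and 0 at day 4, and 26, 22 and 29 at day 8. All values share the libraries' totals, and the correlations describe them with no test.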

How the data were processed

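QKI eCLIP peaks of 9 IP libraries (3 per day) were analysed. The 9 inputs entered through the authors' scores. Per the submitters' processing notes, reads were handled with tools that include STAR, cutadapt and SAMtools (versions not listed), on hg19. The peak caller is not given in the sources used here. Per the file headers, peaks were input-normalized, and each day had 1 list merged after a 4-fold minimum and a 3-way IDR comparison. The deposited values were, by the authors, a log2 fold of IP over input and a −log10 p per peak, capped at 400.

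Peaks belonged to a gene if they overlapped its interval by at least 1 nt on the minus strand. Reproducible peaks within 20 kb on a strand formed loci, those with at least 10 were kept, and both genes replaced the loci they overlap, which gave 155 loci. Log2 of (peaks + 0.5) over (passing peaks + 1) × 10000 was fitted over 9 libraries with limma 3.58.1 (R 4.3.3, lmFit, eBayes with trend), Benjamini-Hochberg adjusted at 0.05. Its estimate of the prior degrees of freedom was infinite, which gives every locus the variance of the trend. Tested on 20 simulated runs with 40 of 155 loci changed 4-fold at day 8, the fit recovered 60.8% and called 0.348% of unchanged loci. Positions were compared by exact permutation.

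The genes, tests and lists were chosen with earlier results of these data known. The rule for named sites took the reproducible footprints of each gene, in full up to 10 and otherwise the 5 with the highest fold per day, and the 3 loci most like each gene. Stretches and single regions were chosen after their values were seen. Genes of the GAS6 receptor and membrane contact site pathways, cell type markers and RNA sequences need hg19 annotation or sequence and were not analysed here. Alternatives changed the fold minimum, peak number, pseudocount, joining distance, locus filter, measure, libraries and replicate block.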

Additional observations from a re-analysis of the deposited data

How the results depend on the processing

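The scarcity of passing peaks at day 4 held at 8-fold enrichment, with equal numbers of peaks (the 3030 of lowest p per library) and without day 4 replicate 1. The last was an alternative chosen after seeing the data. The exception was GAS6, which kept 0.333 peaks per library at day 0 with equal numbers, a setting that drops most day 0 peaks. Peaks per library in ESYT2 were 26.7 at day 0 at 8-fold. With equal numbers they were 25 at day 0, 0 at day 4 and 5.67 at day 8, and counting every cluster gave 102, 15 and 30.3. In GAS6 they were 18.3 at day 0 at 8-fold, 5.67 at day 8 with equal numbers, and 42.3, 10.7 and 33.3 for every cluster. The log2 difference of ESYT2 between day 8 and day 0 became -0.32 at 8-fold and -0.38 for every cluster (limma adjusted p = 0.694 and 0.280), but -2.28 with equal numbers and -1.30 by covered nucleotides, and that of GAS6 1.01 for every cluster and 3.08 with equal numbers (limma adjusted p = 0.00207, 0.00756, 0.00507 and 0.000215). Leaving out single libraries gave -1.42 to -0.50 for ESYT2 (limma adjusted p = 0.00305 to 0.376) and -0.040 to 0.39 for GAS6, below 0 without day 8 replicate 2 alone. With every cluster the mean position in ESYT2 differed by 0.963 kb, the opposite sign, and that in GAS6 by -0.401 kb. With equal numbers ESYT2 differed by -10.5 kb. At 8-fold the differences were -3.62 kb in ESYT2 and -3.58 kb in GAS6 (exact permutation p = 0.1). Without single libraries they were -4.00 to -1.34 kb and -4.30 to -1.23 kb, smallest without day 0 replicate 1, and GAS6 was at -1.86 kb without day 8 replicate 2. The Jaccard difference was 0.160 in ESYT2 and 0.0673 in GAS6 with every cluster. In GAS6 it was 0.170 with equal numbers, over the pairs of libraries with a peak in at least 1 of them. The loci called higher and lower, 25 and 32, were 57 higher with every cluster, 77 lower with equal numbers, 18 lower with joining within 5 kb, 84 and 123 with at least 5 reproducible peaks, 8 and 5 with at least 20, and 17 to 40 and 28 to 39 without single libraries. No other planned setting than those given here reversed a difference or moved a call in either gene, and the causes of these changes were not tested. The mean position of GAS6 had no value with equal numbers, because the day 0 libraries then held 1 GAS6 peak between them. Same-numbered libraries did not deviate together (r from -0.13 to 0.20 over 9 pairs), so the numbers were not taken as pairs. With the replicate block the log2 differences stayed at -0.91 and 0.14 (limma adjusted p = 0.165 and 0.906), and the Jaccard differences at 0.291 and 0.109 (exact permutation p = 0.25, the smallest it can give). Depth per library is unknown, which limits what the day 4 lists can show.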
